A study of Homo sapiens with 12 samples.

Results

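The genes described here encode factors that start cap-dependent translation, proteins that restrain or regulate them, and the related factors eIF4G2 and eIF5A. The set was named by Ensembl gene identifier and holds 10 genes, of which 7 had a value in the deposited table of 17710 features: EIF4EBP1, EIF4EBP2, RPS6KB1, EIF4G1, EIF4G2, PDCD4 and EIF5A. The other 3, EIF4E, EIF4A1 and EIF4B, were not analysed here, so nothing can be said of the mRNA of the cap-binding subunit or the helicase.

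Most mRNAs are translated after the eIF4F complex has assembled on their 5′ cap. In that complex eIF4E holds the cap, eIF4G1 is the scaffold and eIF4A1 unwinds the leader of the mRNA. The 4E-binding proteins compete with eIF4G1 for eIF4E until mTORC1 phosphorylates them, PDCD4 occupies eIF4A until S6 kinase marks it for degradation, and eIF5A helps ribosomes past difficult peptide bonds. Myeloma cells secrete immunoglobulin and depend on a high rate of protein synthesis. PIM kinases act on the same control points, and PIM447 inhibits all PIM kinases.

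All RNA came from MM.1S, an established human multiple myeloma cell line that responds to dexamethasone. Control cells were left untreated, PIM cells received 100 nM PIM447 for 24 h, Pd cells received 200 nM pomalidomide with 5 nM dexamethasone for 15 h, and PIM-Pd cells received all 3 drugs at those doses for 10 h. Each group had 3 arrays from 3 numbered experiments, 12 arrays in total, and the treatments were sub-lethal, with a viability of 74% to 81%. The exposure time differed with the drug, and the labels give no time for the control, so drug and time cannot be told apart. Values are log2 RMA signals, a normalized array intensity on which a step of 1 is a doubling. They measure mRNA relative to the other genes on the array and say nothing of protein or phosphorylation. In such bulk RNA, a smaller share of cells expressing a gene and less of its mRNA per cell cannot be told apart.

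Array medians lay between 4.81 and 4.89, and the correlation across features was 0.987 to 0.993 within groups and 0.977 to 0.992 between them. Of 4 known targets of the glucocorticoid receptor, 3 could be matched to a feature. The match came through gene lists that the study selected on these arrays, so that targets without a change could hardly be found, and their levels are a description rather than a check of the labels. DDIT4, which encodes an mTORC1 inhibitor, had a mean of 5.26 ± 0.14 (SD, n = 3) in control, 5.28 ± 0.13 in PIM, 9.28 ± 0.07 in Pd and 9.22 ± 0.15 in PIM-Pd. TSC22D3 and FKBP5 were likewise higher in every Pd and PIM-Pd array than in any control or PIM array. Of 25 markers of plasma cells and other cell types, only 4 could be matched to an array feature, through the same gene lists. Markers without a change could hardly be found, so their levels are also a description and no check of the cell type. CD38, IRF4 and SLAMF7 had control means of 8.46, 10.07 and 9.94. Under PIM-Pd, IRF4 fell (-1.12, limma's adjusted p = 0.000118), CD38 rose (0.42, adjusted p = 0.0463) and SLAMF7 did not pass (-0.19, adjusted p = 0.596). As the lists were selected on these arrays, the p-values of these markers are no independent evidence of a change. The match for a T cell marker, CD3E, had group means of 4.06 to 4.63, and whether that is background was not tested.

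The promoter of EIF4G1 is shown because this gene fell in the triple combination and holds the E-box, the motif bound by MYC with MAX. RefSeq gave 14 windows for 6 members, 3 of them for EIF4G1 and 6 for EIF5A, and 1 of the 14 (7.14%) held an E-box. EIF4G1 spans chr3:184314606-184335358 on the plus strand of GRCh38.p14. The RefSeq window around its start holds CACGTG 2 times, 144 and 67 bases upstream of the start. The motif reads the same on both strands and occurs in 7.26% of all 35116 RefSeq windows of that length, a share close to that of the members' windows. Some of the EIF5A windows overlap almost fully, so the 14 windows are not 14 separate promoters and their shares are only a description. The flanking bases are in lower case and the motif is in capitals.
EIF4G1 distal E-box, chr3:184314450-184314479: ggctgtggctgtCACGTGacggggcggggg
EIF4G1 proximal E-box, chr3:184314527-184314556: ccctgcgccggtCACGTGggggcgccggct
None of the windows of EIF4EBP2, EIF4G2, EIF5A, PDCD4 or RPS6KB1 held this motif. EIF4EBP1 had no window and was not searched. The half-site of the glucocorticoid receptor, AGAACA or TGTTCT, was searched because dexamethasone acts through that receptor. It was found in 14.8% of all windows and in 2 of the members' 14 (14.3%), once each for EIF4G2 and for a second start of EIF4G1.
EIF4G1 second start, chr3:184315046-184315075: gaagtgacacgtTGTTCTttggcactggcc
EIF4G2, minus strand of chr11:10808072-10808101: cttcctgcttggAGAACAaagagctgggcg
A match of letters is a description of the window, and binding was not measured.

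In the triple combination, the mRNAs of EIF4EBP1, EIF4G1 and EIF5A fell and that of PDCD4 rose. These 4 of the 7 members passed limma's test against control after Benjamini-Hochberg adjustment over all features, 3 of them lower and 1 higher. Across all features 5.02% were called lower and 4.42% higher, 9.44% in all. EIF4EBP2, EIF4G2 and RPS6KB1 did not pass. The median log2 difference of the 7 members was -0.28, against 0.01 over all features. For every member the 3 PIM-Pd arrays lay wholly outside the 3 control arrays, 5 members below and 2 above, whereas 12.5% of all features lay wholly below and 12.2% wholly above. The members that did not pass were separated only narrowly. The nearest control and PIM-Pd arrays read 10.10 and 10.11 for EIF4EBP2, 9.87 and 9.84 for EIF4G2, and 8.86 and 8.80 for RPS6KB1.

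**Figure D1:**
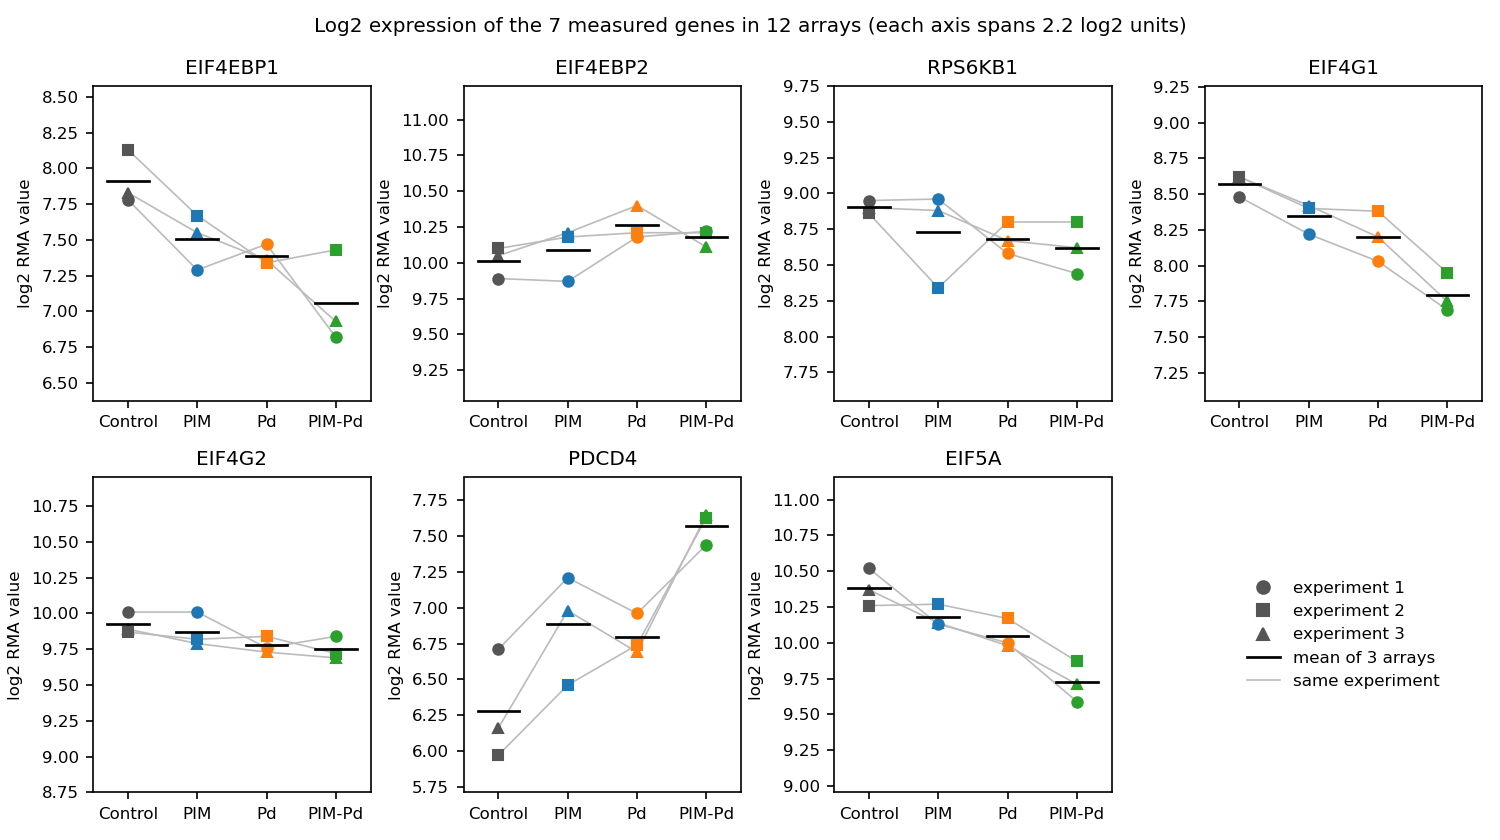
Log2 RMA value of each of the 7 measured genes (vertical axis, each spanning the same range) in the 4 groups (horizontal axis); every point is an array, its shape gives the experiment, grey lines join arrays of the same experiment and black bars are means of 3 arrays. EIF4EBP1, EIF4G1 and EIF5A are lowest and PDCD4 is highest in PIM-Pd, while EIF4EBP2 and EIF4G2 stay within a narrow band.

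Among the repressors of eIF4E, EIF4EBP1 moved and its relative EIF4EBP2 did not pass any test. EIF4EBP1 (ENSG00000187840_at) encodes 4E-BP1, the protein that blocks eIF4E until it is phosphorylated. Its control arrays read 7.78, 8.13 and 7.83 in experiments 1, 2 and 3. The PIM-Pd arrays read 6.82, 7.43 and 6.93, all below the lowest control. PIM arrays read 7.29, 7.67 and 7.55, and Pd arrays read 7.47, 7.34 and 7.36. Both of these groups also lay below every control array, and they overlapped with each other. The PIM-Pd difference from control was -0.85 ± 0.16 (SE) on the log2 scale, a level 0.555 times that of control, with limma's adjusted p = 0.00329. Within experiments it was -0.96, -0.70 and -0.90. The Pd difference was -0.52 ± 0.16 with an adjusted p of 0.0753 in limma, which became 0.0338 with the experiment as a block and 0.0223 when only the Pd and control arrays were fitted. The PIM difference of -0.40 ± 0.16 did not pass in limma (adjusted p = 0.750).

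EIF4EBP2 (ENSG00000148730_at; chr10:70404145-70428618) encodes another 4E-binding protein with the same action on eIF4E. Its control arrays read 9.89, 10.10 and 10.05, and its PIM-Pd arrays 10.22, 10.21 and 10.11. PIM arrays read 9.87, 10.18 and 10.21, and Pd arrays 10.18, 10.21 and 10.40. The Pd and PIM-Pd arrays thus sat just above the controls, PIM overlapped with them, and the whole range over 12 arrays was 9.87 to 10.40. The PIM-Pd difference was 0.16, with a 95% confidence interval of -0.09 to 0.42 and an adjusted p of 0.529 in limma. This interval does not overlap with that of EIF4EBP1, -1.19 to -0.51.

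RPS6KB1 (ENSG00000108443_at; chr17:59893121-59950574) encodes S6 kinase 1, the mTORC1 substrate that phosphorylates ribosomal protein S6, eIF4B and PDCD4. Control arrays lay close together at 8.95, 8.86 and 8.90. PIM arrays read 8.96, 8.34 and 8.88, so experiment 2 stood apart from the others in that group. Pd arrays read 8.58, 8.80 and 8.67, and PIM-Pd arrays 8.44, 8.80 and 8.62. Both groups that received pomalidomide-dexamethasone lay below the controls. The PIM-Pd difference of -0.28 (95% confidence interval -0.61 to 0.04) did not pass, with an adjusted p of 0.335 in limma. Without the PIM array of experiment 2, the PIM difference moved from -0.18 to 0.02.

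EIF4G1 (ENSG00000114867_at) encodes the scaffold that joins the cap, the helicase and the ribosome, and its level was highest in control and lowest in PIM-Pd. Control arrays read 8.48, 8.62 and 8.62. PIM arrays read 8.22, 8.40 and 8.42, and Pd arrays 8.03, 8.38 and 8.20. PIM-Pd arrays were the lowest, at 7.69, 7.95 and 7.75. Only PIM and Pd overlapped; all PIM-Pd arrays lay below both, and all controls above both. In each of the 3 experiments the control was highest and PIM-Pd lowest, an order that 1.3% of all features showed. The PIM-Pd difference was -0.78 ± 0.12 (SE), or 0.583 times control, with limma's adjusted p = 0.000877. It was -0.79, -0.67 and -0.87 within experiments 1 to 3. Only 278 of the 17710 features had a more negative difference. The Pd difference was -0.37 ± 0.12 with an adjusted p of 0.0974 in limma, and with the experiment as a block the adjusted p was 0.0469. The PIM difference of -0.23 ± 0.12 had an adjusted p of 0.809 in limma.

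EIF4G2 (ENSG00000110321_at; chr11:10797046-10808926), also called DAP5, is a relative of the scaffold that lacks the eIF4E-binding part and serves other forms of initiation. Its controls read 10.01, 9.87 and 9.89, and PIM arrays read 10.01, 9.82 and 9.79. Pd arrays read 9.76, 9.84 and 9.73, and PIM-Pd arrays read 9.84, 9.72 and 9.69. The 12 values spanned only 9.69 to 10.01, with the Pd and PIM-Pd arrays below the controls and PIM overlapping with them. The PIM-Pd difference was -0.17 (95% confidence interval -0.40 to 0.05; adjusted p = 0.416 in limma). The interval for EIF4G1, -1.03 to -0.52, lay wholly below it.

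PDCD4 (ENSG00000150593_at; chr10:110871928-110900006), whose product binds eIF4A and keeps it out of the complex, was the only member called higher. Control arrays read 6.71, 5.97 and 6.16, so experiment 1 was well above the others. PIM arrays read 7.21, 6.46 and 6.98. Pd arrays read 6.96, 6.74 and 6.69. PIM-Pd arrays were the highest and the tightest, at 7.44, 7.63 and 7.65, above all 9 other arrays. PIM and Pd each overlapped with the controls through the control array of experiment 1. In every experiment the control was lowest and PIM-Pd highest, which 0.57% of all features showed. The PIM-Pd difference was 1.29 ± 0.20 (SE), a 2.45-fold higher level, with limma's adjusted p = 0.000751. Only 62 features had a larger positive difference. Within experiments it was 0.73, 1.65 and 1.49, smallest where the control was highest. PIM and Pd alone differed from control by 0.60 ± 0.20 and 0.51 ± 0.20, with adjusted p-values of 0.667 and 0.170 in limma. By size alone, 18 features had a larger PIM difference. That rank does not take the spread into account, and the SD of PDCD4 was 0.38 in control and 0.38 in PIM.

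EIF5A (ENSG00000132507_at; chr17:7306999-7312463) encodes the factor that carries hypusine and promotes elongation. It has a closely similar retrocopy in the genome, and whether the probes tell them apart was not tested. Controls read 10.52, 10.26 and 10.37, and PIM arrays 10.13, 10.27 and 10.14. Pd arrays read 10.00, 10.17 and 9.98, and PIM-Pd arrays 9.59, 9.87 and 9.71. PIM overlapped with both control and Pd, whereas PIM-Pd lay below every other array. The PIM-Pd difference was -0.66 ± 0.11 (SE), or 0.633 times control, with limma's adjusted p = 0.002. Experiment 2 gave the smallest within-experiment difference, -0.40, against -0.93 and -0.66 in experiments 1 and 3. Pd differed from control by -0.34 ± 0.11 with an adjusted p of 0.119 in limma.

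**Figure D2:**
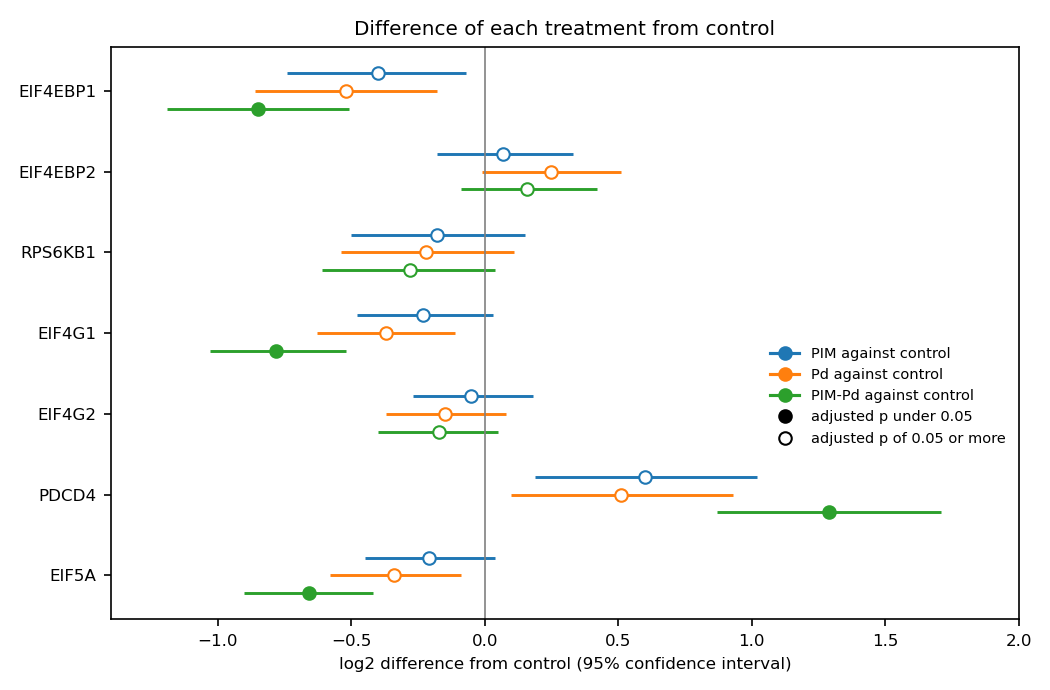
Log2 difference from control (horizontal axis) for each gene under PIM, Pd and PIM-Pd; points are limma estimates from 12 arrays, lines are 95% confidence intervals and filled points have an adjusted p under 0.05. The filled points are those of EIF4EBP1, EIF4G1, EIF5A and PDCD4 under PIM-Pd, and each lies farther from 0 than the same gene's PIM and Pd points.

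The difference of the triple combination from control placed 3 members in the lower tail of all features and PDCD4 in the upper tail. A more negative difference was found for 1.06% of features in the case of EIF4EBP1, 1.57% for EIF4G1 and 2.47% for EIF5A. For PDCD4, 0.35% of features had a larger positive one. RPS6KB1, with 12% of features below it, and EIF4G2, with 19.7%, lay within the bulk, as did EIF4EBP2, with 22% above it. The members that moved most were therefore 1 of the 2 measured binding proteins, the scaffold EIF4G1, the inhibitor of the helicase and the elongation factor.

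**Figure D3:**
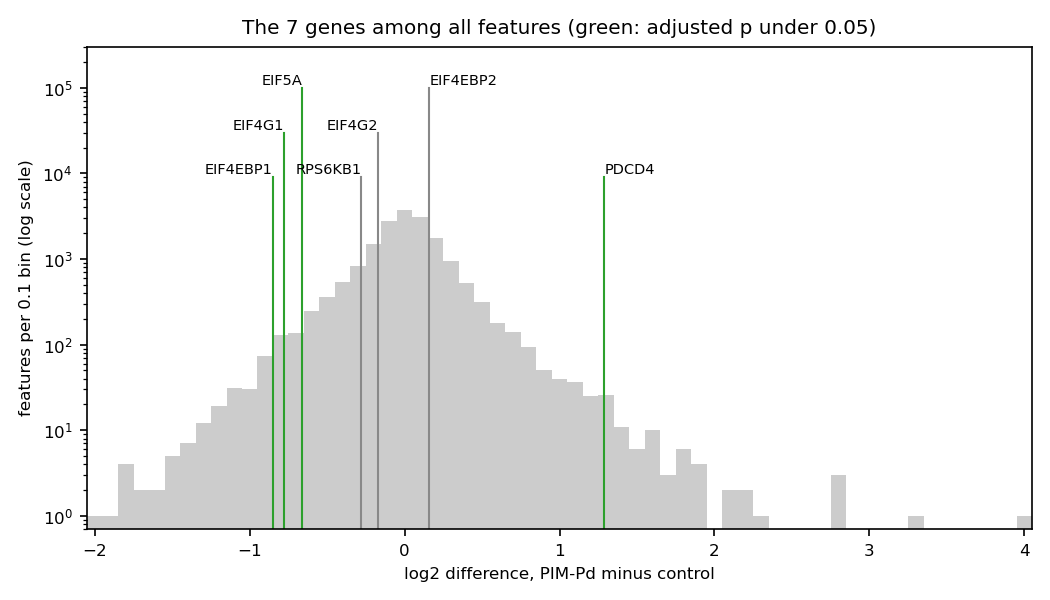
Number of features (vertical axis, log scale) per 0.1 of the log2 difference between PIM-Pd and control (horizontal axis), with the 7 genes as vertical lines of arbitrary height, green where the adjusted p was under 0.05. EIF4EBP1 at -0.85, EIF4G1 at -0.78 and EIF5A at -0.66 lie in the left tail, PDCD4 at 1.29 lies in the right, and the other 3 lie near the centre.

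PIM447 alone gave no call for any member. Neither limma's fit nor the fit with the experiment as a block called any of the 17710 features (0%), although 1098 features (6.2%) had an unadjusted p under 0.05. EIF4EBP1 and PDCD4 were the members among these. The PIM arrays lay wholly below the controls for EIF4EBP1 and EIF4G1 and wholly above them for no member, against 4.99% and 5.99% of all features. Pd treatment gave no call for a member when all 12 arrays were fitted without the block, where 5.42% of features were called. Fitting only the Pd and control arrays called EIF4EBP1. That fit called 1328 of all features, against 960 in the fit of all 12 arrays. With the experiment as a block, EIF4EBP1 and EIF4G1 were called lower, beside 2.5% of all features called lower in that fit. The Pd arrays lay wholly below the controls for 5 members and wholly above them for EIF4EBP2, against 12.3% and 12.4% of all features. For EIF4G2 and RPS6KB1 the separation was narrow, with nearest control and Pd arrays of 9.87 and 9.84, and of 8.86 and 8.80. All treatments were set against the same 3 control arrays, so these differences are not independent of each other. The median difference of the 7 members was -0.18 under PIM and -0.22 under Pd.

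Adding pomalidomide-dexamethasone to PIM447 was read from PIM-Pd (10 h) against PIM (24 h), so the added drugs and the time cannot be told apart. EIF4G1 and EIF5A fell, with log2 differences of -0.55 ± 0.12 and -0.45 ± 0.11 (SE) and adjusted p-values of 0.0136 and 0.0302 in limma. In this comparison 5.66% of all features were called, 2.71% lower and 2.95% higher. PDCD4 differed by 0.69 ± 0.20, at an adjusted p of 0.0541, which became 0.0253 with the experiment as a block, where 3.7% of all features were called higher. PIM-Pd lay wholly below PIM for EIF4G1 and EIF5A and wholly above it for PDCD4, against 9.35% and 8.45% of all features. EIF4EBP1 differed by -0.45 ± 0.16 with an adjusted p of 0.131 in limma. The calls in this comparison depended on single arrays. Neither EIF4G1 nor EIF5A was called without the PIM-Pd array of experiment 1 or of experiment 3, or when only the 6 arrays compared were fitted, and EIF5A was also lost without any PIM array in turn. Without the PIM-Pd array of experiment 2, EIF4EBP1 was called as well (adjusted p = 0.0237), and without the PIM array of experiment 1 PDCD4 was called (adjusted p = 0.0329).

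Adding PIM447 to pomalidomide-dexamethasone was read from PIM-Pd (10 h) against Pd (15 h), so the added drug and the time cannot be told apart. In this comparison no member passed and 0.0791% of all features did. PDCD4 was 0.78 ± 0.20 (SE) higher and did not pass, with an adjusted p of 0.209 in limma. By size alone, a rank that leaves out the spread, 10 features had a larger positive difference. EIF4G1 was -0.41 ± 0.12 from Pd and EIF5A was -0.32 ± 0.11, with adjusted p-values of 0.326 and 0.432. The arrays of PIM-Pd and Pd did not overlap for these 3 genes, 1 higher and 2 lower, against 6.66% and 7.79% of all features. EIF4EBP1 differed by -0.33 ± 0.16 and its groups overlapped, since in experiment 2 the PIM-Pd array was 0.09 above the Pd array. That difference was -0.51 without the PIM-Pd array of experiment 2 and -0.21 without that of experiment 1. Within experiments 1 to 3 the differences were 0.49, 0.89 and 0.95 for PDCD4, -0.34, -0.43 and -0.45 for EIF4G1, and -0.41, -0.30 and -0.27 for EIF5A. Their shared direction follows from the lack of overlap and adds nothing to it.

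Whether the drugs added up was tested by the contrast of the PIM447 difference with and without pomalidomide-dexamethasone. No member passed it, and 0.0169% of all features did. For EIF4EBP1 the PIM and Pd differences sum to -0.93, and the triple combination gave -0.85. For EIF4G1 the sum was -0.60 and the triple combination -0.78. EIF5A gave a sum of -0.54 beside -0.66, and PDCD4 a sum of 1.12 beside 1.29. The triple combination minus the sum lay between -0.18 and 0.17 for all 7 members. The intervals were wide: that of PDCD4 ran from -0.42 to 0.76 and that of EIF4G1 from -0.54 to 0.18, so departures of that size in either direction could not be seen with 3 arrays a group. The exposure times of the 3 treatments differed, which the sum does not take into account.

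**Figure D4:**
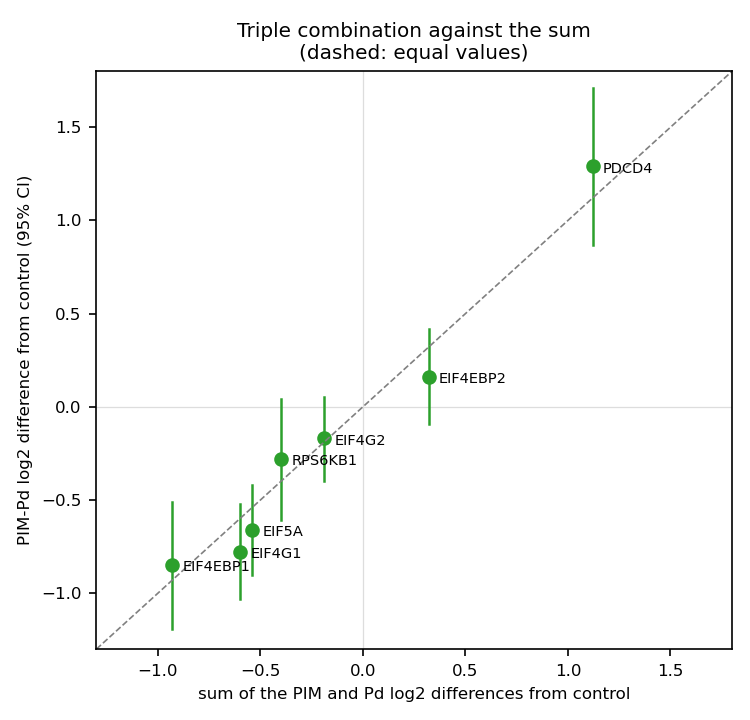
PIM-Pd log2 difference from control (vertical axis, with its 95% confidence interval) against the sum of the PIM and Pd differences from control (horizontal axis) for the 7 genes; the dashed line marks equal values. All 7 intervals cross the dashed line; both axes use the same control arrays, so the points carry a shared error.

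EIF4G1 had the largest moderated F over the 4 groups among the members, 14.8, just ahead of PDCD4, and the features most like it were therefore sought by Pearson correlation over the 12 arrays. The closest was CDK4, the kinase that drives cells out of G1, with r = 0.976. ODC1, the rate-limiting enzyme of polyamine synthesis, followed with r = 0.963, and TRAP1, a mitochondrial chaperone, with r = 0.957. These values are a description over 12 arrays that share 4 treatments, so any gene with the same order of group means scores high. Under PIM-Pd the log2 differences from control were -0.65 ± 0.11 (SE) for CDK4, -0.55 ± 0.10 for ODC1 and -0.82 ± 0.14 for TRAP1. These genes were chosen for following EIF4G1 over the same arrays, which fixes the direction, so the differences are given without a test.

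**Figure D5:**
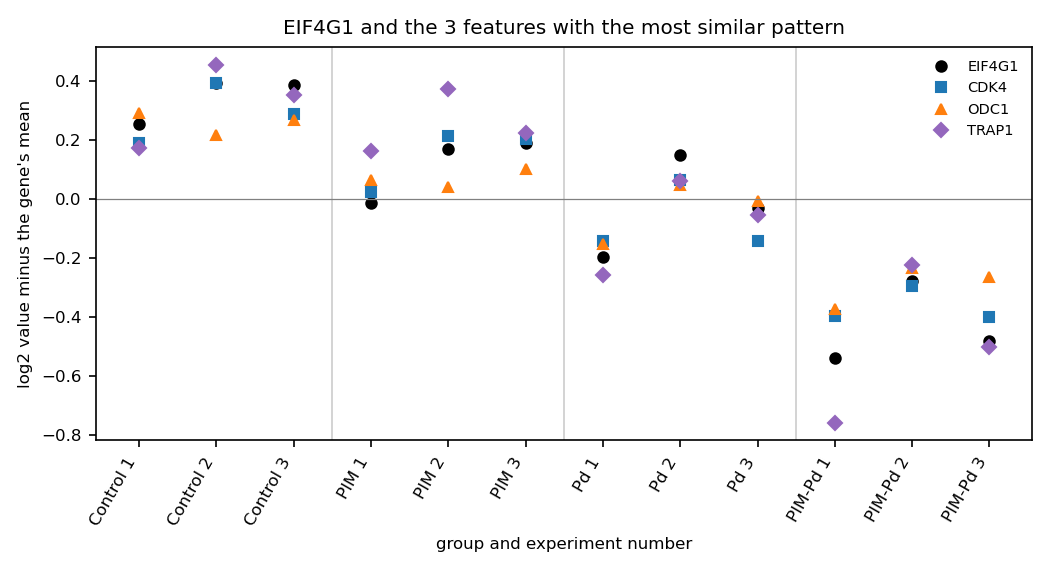
Log2 value minus the gene's mean over 12 arrays (vertical axis) for EIF4G1, CDK4, ODC1 and TRAP1 in each array (horizontal axis, grouped by treatment and numbered by experiment). In all 4 genes the control arrays lie above 0 and the PIM-Pd arrays below 0.

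The rest of the initiation machinery could be followed only in part. Of 53 further genes listed for the eIF4F partners, the S6 and MNK kinases, eIF3, the ternary complex and elongation, 5 could be matched to a feature, through the identifiers in gene lists that the study itself selected on these arrays. They are thus no independent evidence of a change or of its direction, and no share of the pathway can be given. The p-values of these genes carry the same limit. LARP1, which binds the mRNAs of ribosomal proteins under mTORC1 control, had a mean of 9.3 in control, 9.3 in PIM, 8.8 in Pd and 8.6 in PIM-Pd, and its control and PIM-Pd arrays did not overlap. It fell by 0.70 ± 0.11 (SE) on the log2 scale under PIM-Pd and by 0.50 ± 0.11 under Pd, with limma's adjusted p-values of 0.00113 and 0.0167. Of 13 listed genes of eIF3, the complex that brings the small ribosomal subunit to eIF4G1, only 2 were matched. Under PIM-Pd these fell, EIF3M by 0.59 ± 0.11 and EIF3J by 0.62 ± 0.14, with adjusted p-values of 0.00377 and 0.012 in limma. EIF5B, which joins the ribosomal subunits, fell by 0.61 ± 0.17 (adjusted p = 0.0314 in limma). MKNK1, the kinase that phosphorylates eIF4E on the eIF4G scaffold, differed by 0.18 ± 0.18 under PIM-Pd and did not pass (adjusted p = 0.686 in limma). Under Pd it differed by 0.59 ± 0.18, with an adjusted p of 0.0715 that became 0.0307 with the experiment as a block.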

How the data were processed

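RNA of MM.1S cells was hybridised to Affymetrix Clariom S human arrays. The authors deposited log2 values made by RMA (background correction, quantile normalization and probe summary) in oligo 1.44.0 under R 3.5.0, with a custom BrainArray definition that groups probes by Ensembl gene; the genome build is not given in the sources used here. Quantile normalization sets all arrays to the same distribution, so a change in total mRNA would not be seen. No values per probe or detection calls were used, and the 3 arrays per group limit the precision.

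The deposited values were used unchanged and unfiltered. Linear models were fitted to all 12 arrays with limma 3.58.1 in R 4.3.3 (lmFit, eBayes), with 4 groups sharing an estimate of the spread, and p-values were adjusted by the Benjamini-Hochberg method over 17710 features per comparison; a gene was called at an adjusted p under 0.05. The study's methods name SAM; limma was used instead, and label permutations across genes were not drawn. The fit was tested on simulated data. Members and lists were chosen with earlier results of these data known. All members are named; of the other lists at most 4 called genes with the largest PIM-Pd difference are named, besides MKNK1, which was the remaining gene with a match and was added after its values were seen. Symbols came from the list of members and, for 1909 features, from identifiers in the study's gene lists. Promoter sequences are RefSeq's (GRCh38.p14); 6 of the 7 members matched.

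The labels number the arrays as pairs, from 3 experiments. Deviations from the group means of arrays with the same number correlated at -0.10 to 0.30 (median 0.10, over 0.1 in 9 of 18 pairs), against -0.35 to 0.20 (median -0.04) between different numbers. The deviations within a group cancel out, so the values between different numbers are tied to the others and are no independent comparison. The pairing is thus taken from the labels, and a fit with the experiment as a block was an alternative, as were a filter at the 25th percentile of mean signal, median centring, a trended robust prior, a fit of only the groups compared, and leaving out each array.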

Additional observations from a re-analysis of the deposited data

Results flagged for a closer look

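The PIM447 difference was not the same with and without pomalidomide-dexamethasone for 3 of the 17710 features by limma's additivity contrast, none of them a translation factor. They were ARHGAP6 (-1.17 ± 0.16, SE), GRHL3 (-1.26 ± 0.18) and EFEMP1 (1.46 ± 0.20), each with an adjusted p of 0.0292 in limma. The group means in control, PIM, Pd and PIM-Pd were 7.91, 8.24, 7.86 and 7.02 for ARHGAP6, 7.24, 7.39, 8.01 and 6.90 for GRHL3, and 4.34, 3.67, 4.13 and 4.92 for EFEMP1. The genes were chosen after their values were seen, and the count fell to 0 in 10 of the 12 fits that left out an array.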

How the results depend on the processing

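The 4 member calls of PIM-Pd against control kept their direction and their call in every alternative run, including each of the 6 leave-one-array-out fits. There the log2 difference ranged from -1.03 to -0.73 for EIF4EBP1, from -0.85 to -0.72 for EIF4G1, from -0.73 to -0.59 for EIF5A and from 1.14 to 1.51 for PDCD4. With the experiment as a replicate block, 2 members were called in Pd against control instead of 0, beside 1181 features instead of 960. In PIM-Pd against PIM it was 3 members instead of 2, beside 1262 features instead of 1003. No other member call changed with the pairing. Fitting only the groups compared gave 1 member in Pd against control, beside 1328 features instead of 960. It gave 0 members and 455 features instead of 1003 in PIM-Pd against PIM, and 1 feature instead of 14 in PIM-Pd against Pd. A trended robust prior gave 26 features in PIM-Pd against Pd. PDCD4 in PIM-Pd against PIM was also called with the filter on low values (adjusted p = 0.0418) and the robust prior (0.0412), and its adjusted p ranged from 0.0253 to 0.200 over the alternatives.

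Leaving out single arrays gave 497 (without Pd array 3) to 720 features in Pd against control, where 960 were called; dropping Control array 1 gave 522, Pd array 1 gave 520 and Control array 3 gave 608. In PIM-Pd against control it gave 1096 (without Control array 3) to 1435 features, where 1671 were called. In PIM-Pd against Pd the range was 2 (without Pd array 3) to 15; dropping Pd array 1 or 2 gave 4, PIM-Pd array 1 gave 7 and PIM-Pd array 3 gave 3. In PIM-Pd against PIM it was 648 (without PIM-Pd array 3) to 901 features, and 0 to 3 members. In the additivity contrast it was 0 to 3 features, 0 without any single array except PIM array 2 and PIM-Pd array 2. The cause was not tested. Uncalled differences near 0 changed sign when an array was dropped: RPS6KB1 from -0.29 to 0.02 in PIM against control, from -0.15 to 0.03 in PIM-Pd against Pd and from -0.30 to 0.01 in PIM-Pd against PIM; EIF4G2 from -0.07 to 0.01 in PIM-Pd against Pd; EIF4EBP2 from -0.02 to 0.15 in PIM-Pd against PIM; and in the additivity contrast EIF4EBP1 from -0.11 to 0.20, EIF4G2 from -0.02 to 0.09, PDCD4 from -0.04 to 0.33 and RPS6KB1 from -0.08 to 0.23.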
